A study of Mus musculus with 6 samples.

Results

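The 5 genes described here carry out the life cycle of dopamine in a neuron: Th and Ddc for synthesis, Slc18a2 and Slc6a3 for transport, and Drd2 for sensing released dopamine. The genes were chosen with earlier results of these data known. Their probes were taken by gene symbol alone, and all probes annotated to them were read. These were 8 probes among 41174 and 5 genes among 18295 with a symbol on the array. Th and Slc6a3 had 1 probe each, and Ddc, Slc18a2 and Drd2 had 2 each, called the brighter and the dimmer probe below by their mean intensity. In the Pitx3(gfp/-) RNA the dopamine transporter gene Slc6a3 was lower than in the Pitx3(gfp/+) RNA, at or near the local background. Th was not distinguishable from background in either RNA, and the probes of Ddc, Slc18a2 and Drd2 gave no difference that passed the test.

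The arrays compared neurons from brains of E14.5 mouse embryos, sorted by green fluorescent protein (GFP). Pitx3(gfp/-) RNA, called null here and named Pitx3-GFP/AK in the labels, had the same unnumbered name on every array and was taken as a single pool. Pitx3(gfp/+) RNA, called heterozygous here and named Pitx3-GFP/wt, came from 3 pools. Both genotypes carried 1 GFP allele at Pitx3 as the sort marker, and the other allele was labelled - or +, so the heterozygous cells had 1 allele labelled as wild type. Each heterozygous pool was hybridised against the same null pool on 2 arrays with the dyes Cy5 and Cy3 swapped, 6 arrays in all. Per the labels' protocols, a pool held several embryos and 69000 to 83000 sorted cells, and the RNA was amplified in 2 rounds with T7 polymerase before labelling. The protocol describes the sort for Pitx3(gfp/+) midbrain dopaminergic neurons, and a separate description of the null sort was not used here.

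Dopamine is made from tyrosine in a pair of steps: tyrosine hydroxylase (Th), the rate-limiting enzyme, gives L-DOPA, and aromatic L-amino acid decarboxylase (Ddc) turns it into dopamine. The vesicular monoamine transporter Slc18a2 loads dopamine into synaptic vesicles, the plasma membrane transporter Slc6a3 takes it back up after release, and the D2 receptor Drd2 acts on the releasing neuron as an autoreceptor that dampens firing and release. Pitx3 encodes a homeodomain protein that midbrain dopaminergic neurons need, and mice without it lose many neurons of the substantia nigra. Slc6a3, Slc18a2, Th and Drd2 are known as genes that depend on the orphan nuclear receptor Nr4a2, in part together with Pitx3.

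The promoter of Slc6a3, the gene that changed, and the Ddc promoter that held the single match among the members are shown so that the letters searched can be seen. The sequences are from RefSeq on build GRCm38.p6, each with 250 bases before and 50 after an annotated start, and all 5 genes had an entry, Ddc with 2 starts. The bicoid-class homeodomain motif TAATCC, the kind that Pitx factors recognise, was searched on both strands and was found in 7.06% of 32851 promoters of that length. The NR4A motif AAAGGTCA was found in 1.51% of them. Capitals mark a match, and the lines give the gene strand 5′ to 3′.
Slc6a3, chr13:73536497-73536796, plus strand: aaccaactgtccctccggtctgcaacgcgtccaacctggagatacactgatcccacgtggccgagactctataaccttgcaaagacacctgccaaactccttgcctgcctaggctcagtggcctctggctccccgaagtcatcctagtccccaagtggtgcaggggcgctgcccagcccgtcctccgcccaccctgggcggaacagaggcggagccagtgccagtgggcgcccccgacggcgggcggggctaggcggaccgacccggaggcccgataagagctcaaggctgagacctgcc
Ddc, chr11:11898095-11898394, minus strand: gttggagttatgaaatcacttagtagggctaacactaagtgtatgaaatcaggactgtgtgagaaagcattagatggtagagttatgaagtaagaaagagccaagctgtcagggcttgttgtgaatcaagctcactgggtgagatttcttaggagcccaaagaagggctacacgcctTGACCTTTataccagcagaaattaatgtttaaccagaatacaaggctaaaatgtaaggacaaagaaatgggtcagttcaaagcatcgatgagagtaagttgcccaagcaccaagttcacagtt
No TAATCC match lay in these windows for any of the 5 genes. The match in Ddc, TGACCTTT, is the reverse complement of the NR4A motif and begins 73 bases before the start. These are matches of letters in short windows, and nothing about binding was measured.

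The targeted gene was read first. Pitx3 had 1 probe, with signals of 266 to 792 in null RNA and 219 to 767 in heterozygous RNA, detected on all 6 arrays in each RNA. Here and below, a signal was detected, or well above background, when it exceeded the median of its local background by more than 2 SDs of that background. The log2 ratio of null over heterozygous was -0.45, 0.12 and 0.07 in the 3 pools (-0.08 ± 0.32, SD, n = 3; adjusted p = 0.848), and 0.10 without replicate 1. It also turned with the dye, at 0.14 with null RNA in Cy5 and -0.31 with null RNA in Cy3. The position of this probe in the gene was not available for this work and both genotypes carry the GFP allele, so the reading is no check of the labels. Between 30.3% and 52.9% of all probes were detected, depending on the array and the RNA.

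The labelled cell type was set against 20 marker genes of midbrain dopaminergic neurons, the 5 genes above among them. By its brightest probe, 15 of the 20 genes were well above background on at least 3 arrays in null RNA and 16 in heterozygous RNA. The same measure gave 8 of 8 mesenchyme and muscle markers and 2 of 4 noradrenergic markers in both RNAs. Such shares therefore do not identify the cells, and the share over all genes is not given here. Th and the homeobox gene En1 were at 0 of 6 arrays in both RNAs. The floor plate and dopaminergic factor Lmx1a was at 1 array in null RNA and 0 in heterozygous RNA, and the GDNF receptor gene Ret at 1 array in each. The transcription factor genes Nr4a2, Foxa2, Lmx1b, Otx2 and En2 were each detected 6 times of 6 in either RNA. Th, a defining marker of dopaminergic neurons, was therefore not detected with this probe, and the sorted cells are called here by their label.

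**Figure D1:**
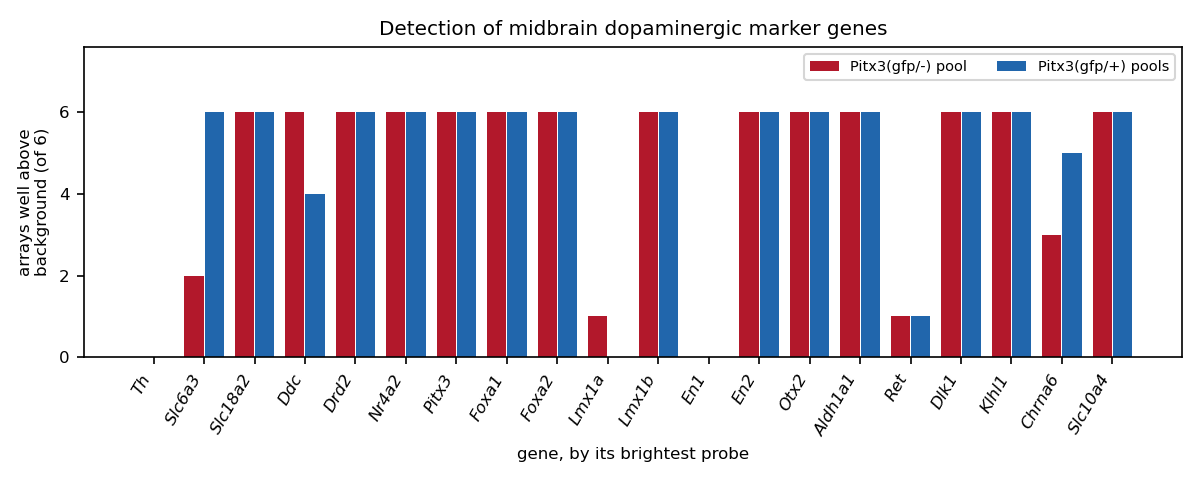
Number of arrays, of 6, on which each midbrain dopaminergic marker gene was well above background, for the Pitx3(gfp/-) pool (red) and the Pitx3(gfp/+) pools (blue). Th and En1 were at 0 in both, and Slc6a3 was at 2 arrays in the Pitx3(gfp/-) RNA and 6 in the Pitx3(gfp/+) RNA.

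Markers of other cells were also measured. The GABAergic list was above background on at least 3 arrays for 7 of 7 genes in both RNAs, and the glutamatergic and red nucleus list for 6 of 6. Their signals minus background summed over the list to 723 to 1201 in null RNA and 640 to 1440 in heterozygous RNA for the first list, and 922 to 1922 against 775 to 1594 for the second. The radial glia and floor plate list summed to 4044 to 7509 in null RNA and 2984 to 5774 in heterozygous RNA, with 7 of 10 genes above background in both. The midbrain dopaminergic list summed to 961 to 2098 and 883 to 1871. Every one of these ranges overlapped between the RNAs. The sums are not normalized and mix both dyes, and bright genes weigh most in them. Their overlap therefore cannot show that composition was alike. In bulk RNA, fewer cells of a type and less RNA per cell cannot be told apart, and the part of cell composition in the results below was not tested.

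For synthesis, the Th probe read 1.04 to 1.27 times its local background in null RNA (median 1.19 over 6 arrays) and 1.17 to 1.27 times in heterozygous RNA (median 1.25). In units of the background SD the spot stood at most 1.54 above background in null RNA and at most 1.81 in heterozygous RNA. Its signal minus background in Cy5 was 2.2, 9.2 and 10.9 in null RNA and 7.6, 10.3 and 6.8 in heterozygous RNA, for pools 1, 2 and 3, and in Cy3 it was 7.9, 3.6 and 7.5 against 10.6, 9.0 and 10.5. All 12 readings thus fell short of the 2 SDs required, and no ratio is given for Th. Whether the mRNA was low or this 1 probe failed to report it could not be tested with these files.

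The brighter Ddc probe was detected on 6 arrays in null RNA and 4 in heterozygous RNA. Its signal minus background in Cy5 was 21.7, 30.7 and 24.0 in null RNA and 13.5, 26.1 and 10.3 in heterozygous RNA, in the same order of pools. In Cy3 it was 17.8, 16.8 and 17.0 in null RNA and 19.6, 26.8 and 24.2 in heterozygous RNA. The order of the means thus turned round with the dye, with overlapping ranges in Cy5 and null below heterozygous in Cy3. After normalization its log2 ratio was 0.02 ± 0.032 (SD, n = 3 pools; 95% interval -0.04 to 0.08; adjusted p = 0.732), with 4 of 6 arrays above 0. The dimmer Ddc probe was detected on 1 array in null RNA and 2 in heterozygous RNA, and its ratio of 0.03 ± 0.0078 (adjusted p = 0.628) rests on signals mostly at background.

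The order of the RNAs in Cy3 has to be read against the whole array. The 3 null readings in Cy3 lay below the 3 heterozygous ones, with no overlap, for 25.1% of all 41174 probes, but in Cy5 for 0.357%. Among the 8 probes, Th, the brighter Ddc probe, Slc6a3 and the dimmer Drd2 probe showed this in Cy3, and Slc6a3 alone showed it in Cy5. These scanner values carry no normalization between arrays, and the null readings are repeats of 1 pool.

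For vesicular loading, the brighter Slc18a2 probe was detected 6 times of 6 in each RNA. In Cy5 its signal minus background was 29.6, 43.0 and 26.7 in null RNA, against 24.8, 33.2 and 20.5 in heterozygous RNA. The Cy3 values were 27.2, 21.0 and 20.0 in null RNA and 24.4, 32.6 and 25.1 in heterozygous RNA. The RNAs overlapped in both dyes. Its log2 ratio was 0.01 ± 0.052 (95% interval -0.07 to 0.09; adjusted p = 0.921). The dimmer Slc18a2 probe was detected on 5 arrays in each RNA and read 0.02 ± 0.11 (95% interval -0.10 to 0.15; adjusted p = 0.898), with pools at -0.03, -0.05 and 0.14. Each of the Slc18a2 probes was above 0 on 3 arrays and below 0 on 3.

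Slc6a3, the reuptake transporter, differed between the RNAs in each dye. In Cy5 its signal minus background was 5.4, 21.6 and 13.4 in null RNA, against 34.0, 40.6 and 23.8 in heterozygous RNA. In Cy3 the values were 12.7, 10.2 and 8.6 in null RNA and 29.7, 40.6 and 32.9 in heterozygous RNA. Null readings were below heterozygous ones without overlap in both dyes, narrowly in Cy5, which held for 80 of the 41174 probes (0.194%) and for 1 of these 8. The mean in null RNA was 41.1% of that in heterozygous RNA in Cy5 (13.5 ± 8.1 against 32.8 ± 8.5, SD of 3 arrays) and 30.5% in Cy3 (10.5 ± 2.1 against 34.4 ± 5.6). The null SD covers repeat readings of 1 pool, and the heterozygous SD covers 3 pools. By the same means, which are not normalized, the Ddc, Slc18a2 and Drd2 probes stood at 92.3% to 153% in Cy5 and 67.8% to 84.4% in Cy3.

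**Figure D2:**
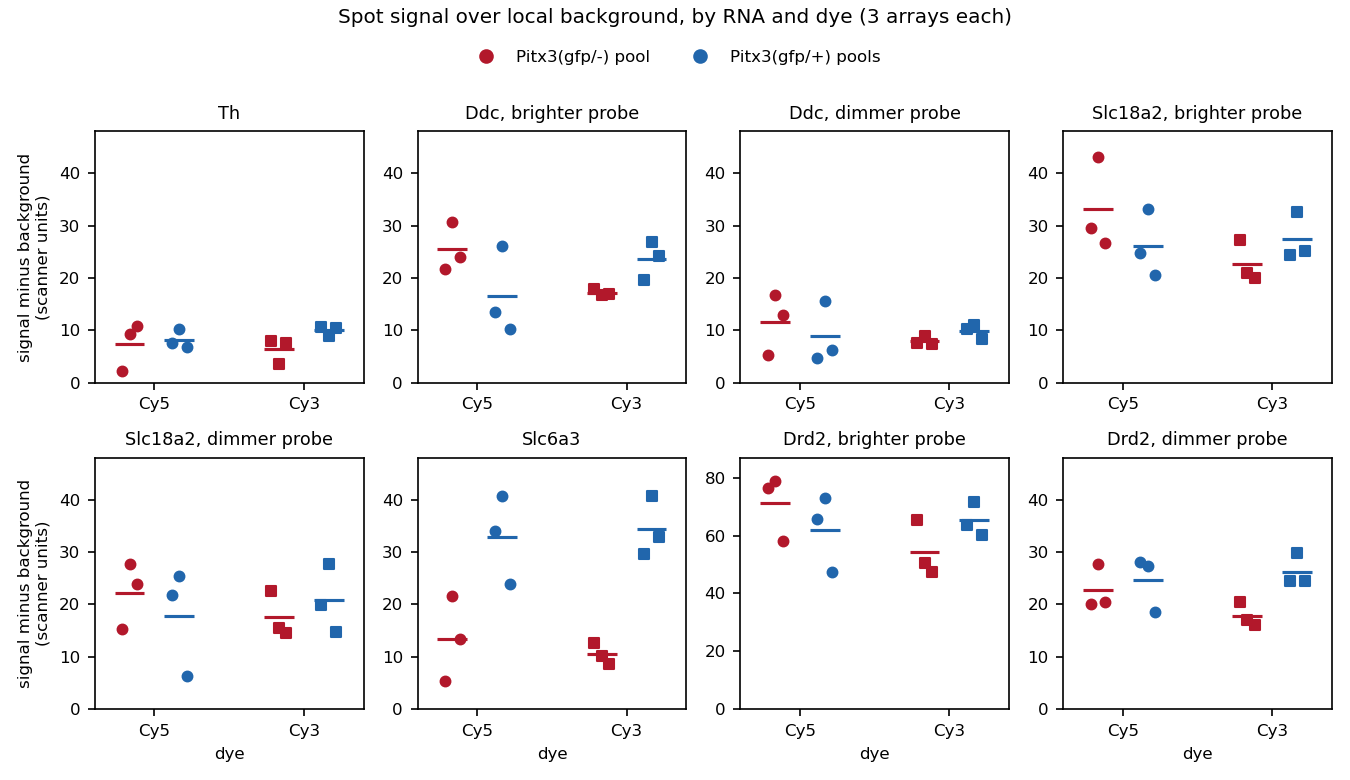
Spot signal minus local background, in scanner units without normalization, of the 8 probes, for the Pitx3(gfp/-) pool (red, 3 readings of the same pool) and the 3 Pitx3(gfp/+) pools (blue) in each dye, with circles for Cy5, squares for Cy3 and a line at the mean of 3. The red and blue points separate for Slc6a3 in both dyes, and the axis of the brighter Drd2 probe is longer than the others.

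Detection followed the same order. Slc6a3 was well above background on 2 of 6 arrays in null RNA and on 6 of 6 in heterozygous RNA. A pattern of 6 arrays in heterozygous RNA and at most 2 in null RNA was found for 17 of the 41174 probes, and the reverse pattern for 24. With the stricter limit of 3 background SDs, Slc6a3 was detected on 0 arrays in null RNA and 5 in heterozygous RNA. The null level is thus close to the limit of what the probe can report, and the size of the difference depends on how background is treated.

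In the fit over all probes Slc6a3 fell by 0.42 ± 0.018 on the log2 scale (SD, n = 3 pools; 95% interval -0.47 to -0.36), with pools at -0.44, -0.40 and -0.41 and all 6 arrays below 0. This is 1.33-fold lower in null RNA, with an adjusted p of 0.0228 (limma, Benjamini-Hochberg over 41174 probes). It was the 1 called probe of the 7 with a ratio, with 0 called higher and 6 not called; over all probes 0.903% were called lower and 1.67% higher. The median log2 ratio of the 7 probes was 0.01, and that of all probes -0.0019. Here 269 probes had a ratio as low or lower, and 37 a p-value as small.

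The background treatment set the size of the Slc6a3 difference more than its direction. The fit uses normexp background correction and adds 50 units to each channel, an offset that draws the ratios of dim probes toward 0 and narrows their spread. With an offset of 16 the ratio was -0.78 ± 0.053 (1.72-fold lower; adjusted p = 0.00753). With plain subtraction of the background it was -1.53 ± 0.28 (2.89-fold lower), with pools at -1.77, -1.23 and -1.59, and did not pass (adjusted p = 0.354). No probe passed with limma under that setting, and 5058 had an unadjusted p under 0.05. The authors' normalized values gave -0.45, -0.51 and -0.49 on the arrays with null RNA in Cy5 and -0.47, -0.50 and -0.43 on those with it in Cy3. Every setting tried gave a ratio below 0, and 9 of 16 alternatives kept the call. With any 1 pool left out the ratio was -0.42 to -0.40 and the call ended (adjusted p of 0.0756 without replicate 1, 0.0595 without replicate 2 and 0.107 without replicate 3).

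**Figure D3:**
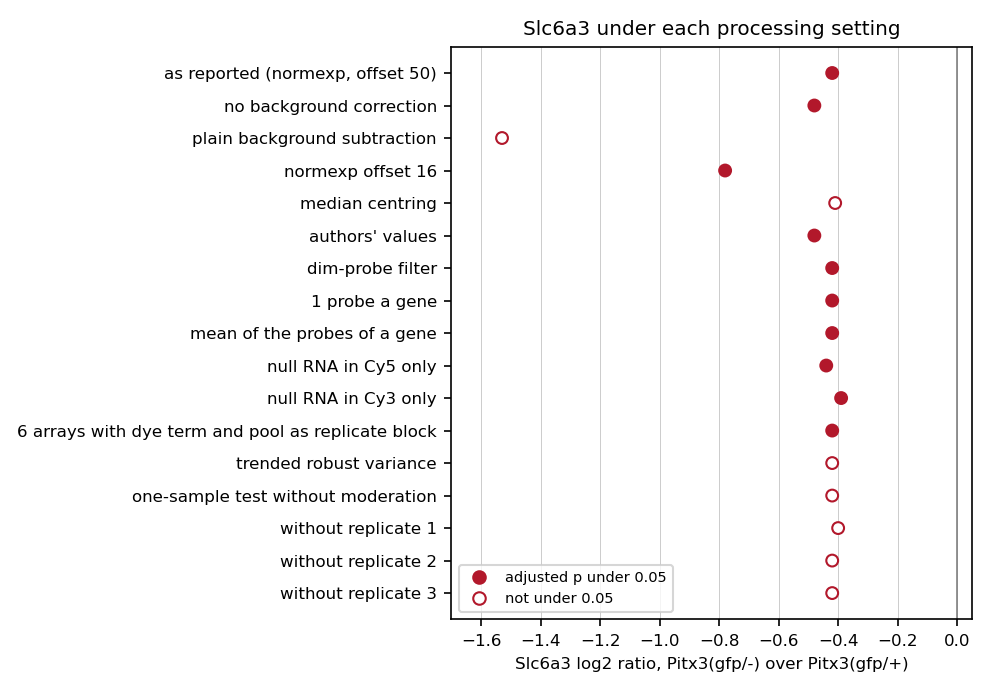
Log2 ratio of Slc6a3, Pitx3(gfp/-) over Pitx3(gfp/+), under the reported processing (top) and 16 alternatives, filled where the adjusted p was under 0.05. All points lie below 0, from -1.53 with plain background subtraction to -0.39 on the arrays with null RNA in Cy3.

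Drd2, the autoreceptor gene, was detected with both probes, and at the brighter one the RNAs overlapped in both dyes. Signal minus background of its brighter probe in Cy5 was 76.4, 79.0 and 58.1 in null RNA and 65.7, 73.0 and 47.3 in heterozygous RNA. In Cy3 the values were 65.2, 50.4 and 47.4 in null RNA and 63.8, 71.7 and 60.2 in heterozygous RNA. The log2 ratio was -0.04 ± 0.045 (95% interval -0.11 to 0.03; adjusted p = 0.606). The dimmer Drd2 probe gave 20.1, 27.8 and 20.4 in null RNA against 28.0, 27.4 and 18.6 in heterozygous RNA in Cy5, and 20.4, 17 and 16 against 24.4, 29.9 and 24.5 in Cy3. These overlapped in Cy5 and not in Cy3. This probe, detected like the brighter one on 6 arrays in each RNA, read -0.10 ± 0.032 (95% interval -0.16 to -0.04) with all 6 arrays below 0, an unadjusted p of 0.00861 and an adjusted p of 0.121. With plain subtraction its ratio was -0.34 ± 0.14 (adjusted p = 0.415). The 2 probes of Drd2 thus shared the sign of their means, and neither passed. The brighter one was below 0 on 4 of 6 arrays. An interval around 0 on the offset scale does not show equal levels for any of these probes.

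**Figure D4:**
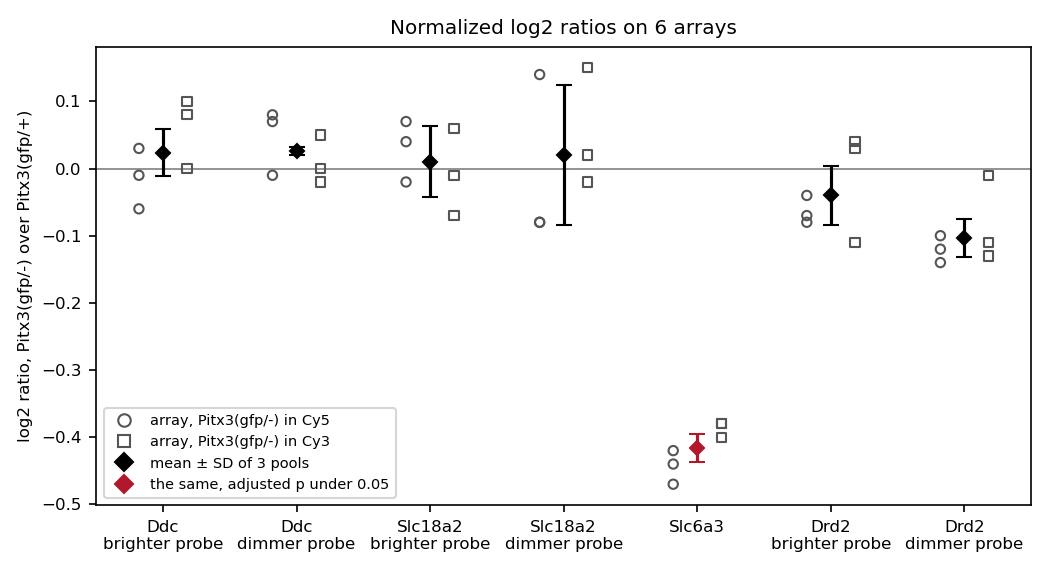
Log2 ratio of Pitx3(gfp/-) over Pitx3(gfp/+) for the 7 probes with a reading above background, on each array (open circles, Pitx3(gfp/-) in Cy5; open squares, in Cy3) and as mean ± SD of 3 pools (diamonds, red where the adjusted p was under 0.05). Slc6a3 lies between -0.47 and -0.38 on the 6 arrays, and the other probes between -0.14 and 0.15.

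**Figure D5:**
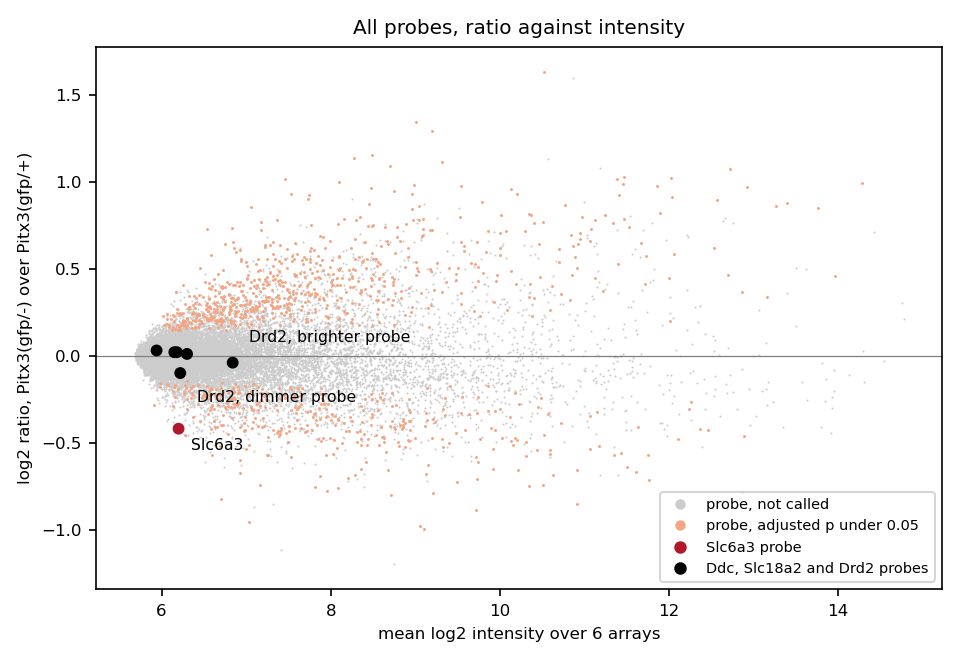
Log2 ratio against mean log2 intensity for all 41174 probes (grey, orange where called), with the Slc6a3 probe in red and the 6 Ddc, Slc18a2 and Drd2 probes in black. Slc6a3, at -0.42, lies below those 6, which lie between -0.10 and 0.03.

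The probes whose ratios on the 6 arrays lay nearest to Slc6a3, by Euclidean distance over 10296 candidates detected on at least as many arrays in heterozygous RNA, were those of the zinc finger gene Zfp655 (distance 0.111), the Golgi matrix gene Golga2 (0.122) and the Argonaute gene Ago4 (0.133). Each read -0.41 and was called (adjusted p of 0.0237, 0.0235 and 0.0263, with SDs of 0.053, 0.044 and 0.063). All 3 were detected on 6 arrays in each RNA, which Slc6a3 was not. For the genes without a call the nearest probes were also near 0: Speer4cos, Cst6 and Ppp1r9b for Ddc at distances of 0.040 to 0.056, Tspan9, Tmod2 (not its brightest probe) and Clvs2 for Slc18a2 at 0.035 to 0.052, and Lrrc7, Tfec and Lefty1 for Drd2 at 0.054 to 0.061. All ratios share the null pool, so this likeness describes the arrays and carries no test.

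Around the 5 genes, the lists of the pathway held 2 calls, both lower in null RNA, where genes by their brightest probe were called lower in 1.6% and higher in 2.8% of 18295. Tetrahydrobiopterin is the cofactor of tyrosine hydroxylase. Of 7 measured genes of its synthesis and recycling, 0 rose and 1 fell: Pts, an enzyme of its synthesis, by 0.23 ± 0.045 (adjusted p = 0.0403), with pools at -0.26, -0.18 and -0.26. On single arrays Pts read -0.07, -0.19 and -0.18 with null RNA in Cy5, and -0.44, -0.18 and -0.34 with null RNA in Cy3. Its mean signal was 133 in null RNA and 150 in heterozygous RNA. Gch1, the first enzyme of that route, was at 0 of 6 arrays in both RNAs, as was Pcbd2. The median of the list was 0.01, against -0.0027 over all genes.

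Among 14 measured partners of the enzyme, the transporter and the vesicle, 0 rose and 1 fell. That was Slc10a4, an orphan carrier of synaptic vesicles in monoaminergic and cholinergic neurons, at -0.31 ± 0.078 (adjusted p = 0.0437) with pools at -0.23, -0.32 and -0.39 and mean signals of 144 in null RNA and 176 in heterozygous RNA. The list median was 0.01. Slc10a4 was detected 6 times of 6 in each RNA, so its ratio does not rest on background as that of Slc6a3 does.

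Breakdown and conversion of dopamine gave 0 rises and 0 falls among 6 measured genes (median -0.03), from monoamine oxidase A, Maoa, at -0.19 ± 0.32 to dopamine beta-hydroxylase, Dbh, at 0.04 ± 0.025. Other monoamine transporters and dopamine receptors gave 0 and 0 among 9 (median 0). Of these the D4 receptor gene Drd4 was lowest at -0.12 ± 0.17 and the D3 receptor gene Drd3 highest at 0.16 ± 0.046 (adjusted p = 0.0731), among those above background. The noradrenaline transporter gene Slc6a2, the D1 receptor gene Drd1 and Slc22a3 were at 0 arrays in both RNAs. Among 10 genes of inhibitory G-protein signalling downstream of the autoreceptor there were 0 rises and 0 falls (median -0.01), with the G-protein subunit gene Gnai1 at -0.39 ± 0.19 (adjusted p = 0.107) and the arrestin gene Arrb2 at 0.09 ± 0.22.

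Of the 20 midbrain dopaminergic genes, 2 were called lower, Slc6a3 and Slc10a4, and 0 higher. The list median was -0.06, against -0.0027 over all genes. Medians were lower for the GABAergic (-0.16), serotonergic (-0.14) and cholinergic and oculomotor (-0.09) lists. Those of the other marker lists lay between -0.03 and 0.13. Those not called ran from En2 at -0.35 ± 0.24 to Dlk1 at 0.25 ± 0.1, with Nr4a2 at -0.31 ± 0.25 (adjusted p = 0.269). Calls in markers of other cells stood beside the Slc6a3 call. Over all 18295 genes by their brightest probe, 1.6% were called lower and 2.8% higher. The GABAergic list had 1 rise, Sox14 at 0.22 ± 0.032, and 1 fall, Tal1 at -0.29 ± 0.060. Gata3 of the serotonergic list fell by 0.33 ± 0.080, while the defining serotonergic gene Tph2 was at 0 arrays in both RNAs. The other 5 GABAergic genes were not called, nor were the other 3 measured serotonergic ones. In the glutamatergic and red nucleus list Pou4f1 rose by 0.44 ± 0.064 and the other 5 genes were not called (list median -0.03), though the other probe of Slc17a6, a vesicular glutamate transporter gene, was called lower. Hbb-y was the 1 called gene of 5 for red blood cells and rose by 0.37 ± 0.060. Myod1 was the 1 called gene of 8 for mesenchyme and muscle and fell by 0.22 ± 0.032. The noradrenergic list, whose neurons also carry Th and Ddc, had 0 calls among 4 measured genes and summed to 66 to 115 in null RNA and 73 to 187 in heterozygous RNA. The cholinergic and oculomotor list had 1 of 4 genes detected on at least 3 arrays in null RNA and 4 in heterozygous RNA, with 0 calls and sums of 175 to 337 and 149 to 391. For red blood cells the sums were 328 to 630 in null RNA and 220 to 484 in heterozygous RNA, for endothelium 334 to 554 and 313 to 867, and for mesenchyme and muscle 304 to 605 and 307 to 565, overlapping in each list. The limits of such sums given above hold here too. Microglia markers had 5 of 6 genes detected on at least 3 arrays in null RNA and 6 in heterozygous RNA, with 0 calls. There were also 0 calls among the 10 radial glia and floor plate genes and the 7 endothelium genes. The part of these shifts in the Slc6a3 difference was not tested.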

How the data were processed

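Per the file headers, the deposited scanner files give spot intensity and local background intensity in 2 channels, without normalization; the first channel followed the authors' Cy5 values and the second their Cy3 values. The authors also deposited normalized intensity values per dye and a series table of log2 values, equal to the log2 of their Cy5 over Cy3 signal. Their normalization method, and the build of the probes, are not given in the sources used here. Spots were named by the platform annotation: of 41174 probes, 34186 had 1 symbol and 6988 none, and 4046 control spots were left out of all tests. Older symbols were updated with a RefSeq table.

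Background was corrected with normexp (offset 50) and each array was loess-normalized (control spots had weight 0), in limma 3.58.1 (R 4.3.3). Ratios were set to run as null over heterozygous. Both arrays of a heterozygous pool were averaged, and the mean of 3 pools tested against 0 with lmFit and eBayes across all 41174 probes, with Benjamini-Hochberg adjustment and a threshold of 0.05. The null RNA was 1 pool, so the p-values leave out its spread. The number of arrays limits the precision. The genes, gene lists and tests were chosen with earlier results of these data known. Genes named are the 5 genes, Pitx3, pathway genes past the threshold (or the highest and lowest above background where a list had none), and the 3 nearest probes by ratio among those detected on at least as many heterozygous arrays; marker genes outside this rule were named after their values were seen. Alternatives covered background, offset, normalization, the authors' values, dim probes, several probes a gene, dye orientation, the paired arrays, the variance model, each pool and the detection limit.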

Additional observations from a re-analysis of the deposited data

Results flagged for a closer look

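Of 22 ratios read across the 6 arrays (the 7 probes with a reading, Pitx3, Pts, Slc10a4 and the nearest probes), 1 held an array that stood apart by Dixon's ratio, and chance gives about 1 in 20. The dimmer Drd2 probe read -0.01 where pool 2 was hybridised with null RNA labelled Cy3, and -0.14 to -0.10 on the other arrays (ratio of gap to range 0.722). Without replicate 2 its mean was -0.12, against -0.10 with all pools.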

How the results depend on the processing

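The number of called probes, 686 higher and 372 lower with limma, was 0 and 0 with plain background subtraction (5058 probes at an unadjusted p under 0.05), with median centring (4711), with a trended robust variance (4987) and in a one-sample test without moderation (4536), against 6567 as reported; the cause was not tested. It was 0 to 0 in both directions with 1 pool left out (5164 to 5742), which leaves 2 pools. An offset of 16 gave 1263 higher and 852 lower, and the orientation with null RNA in Cy5, taken alone, gave 653 lower. With the 6 arrays in 1 model, a dye term and pool as a replicate block, there were 1850 higher and 1453 lower, and Slc6a3 stayed at -0.42 (adjusted p = 0.000383). Slc6a3 lost its call at -1.53 with plain subtraction, -0.41 with median centring, -0.42 with the trended robust variance and -0.42 without moderation, and ran from -0.42 to -0.40 with 1 pool left out. It kept it in the other 9, with adjusted p-values up to 0.026.

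Of the 6 probes with a ratio and no call, none passed in the alternatives run for it, and 3 changed sign near 0. These were 16 for each brighter probe, 13 for the dimmer Ddc probe and 14 for the dimmer Slc18a2 and Drd2 probes, since 1 value per gene leaves all 3 dimmer probes out and the dim-probe filter that of Ddc. Th, with no ratio, was not put through them. With null RNA in Cy5 the brighter Ddc probe and the dimmer Slc18a2 probe both read -0.01, and with null RNA in Cy3 the brighter Slc18a2 probe read -0.01. With 1 pool left out the brighter Slc18a2 probe ran from -0.01 to 0.04 and the dimmer from -0.04 to 0.06. Both Drd2 probes stayed below 0, the dimmer at an adjusted p of 0.0556 or more.

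With 3 background SDs in place of 2, in null and heterozygous RNA in that order, the brighter Ddc probe was detected on 3 and 3 arrays, the dimmer on 0 and 0, the brighter Slc18a2 probe on 5 and 6, the dimmer on 4 and 2, Slc6a3 on 0 and 5, and the dimmer Drd2 probe on 3 and 5. The list counts of the pathway were the same with any probe of a gene. Pts and Slc10a4, like every other gene, were not called in the settings above that left 0 called probes. Detection against negative control spots was not run, since the files used here do not say which control spots are negative. Brightness limits all 5 genes: of their probes, the brighter Drd2 probe alone stood above 3 SDs on all arrays in both RNAs.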
